A study of Mus musculus with 12 samples.

Results

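Dync1h1, Myh9, Myh10, Flna, Iqgap1, Macf1 and Tln1 are large genes of the cytoskeleton and its motors, and their use of exons was followed in mouse embryonic stem cells deprived of Cdk13. All rows of these 7 genes were taken from the authors' deposited table of exon use, whatever their class, and ordered from the 5′ end. They made up 416 of 138745 exon parts and 7 of 15139 gene names. An exon part is a stretch of a gene whose reads are counted as a unit. The set was put together because of the values of Dync1h1, Flna and Macf1 in the same table, so the values below are a description, and no test of the genes as a set is given.

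The cells were V6.5 embryonic stem cells (C57Bl/6-129) of genotype Cdk13-/-; Cdk13 Tg+, in which doxycycline keeps a Cdk13 transgene on. One group had been without doxycycline (-Dox) for 48 h, another for 72 h, and the controls (+Dox) were kept in 1 µg/mL. Each group held 4 libraries of polyadenylated RNA, 2 from clone 11-8 and 2 from clone 14-1, so the study rests on 2 clones. The controls carried the same knockout and the same transgene as the cells without Cdk13. Doxycycline withdrawal from cells lacking the transgene was not analysed here, so loss of Cdk13 and removal of the drug cannot be told apart. The RNA integrity number was 8.9 to 9.2 after 48 h without doxycycline, 8.9 to 9.3 after 72 h and 8.9 to 9.2 with it, so the 3 ranges overlapped.

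Each part had the authors' log2 fold change of its use, cells without Cdk13 over cells with Cdk13, and an adjusted p-value from DEXSeq at each time. DEXSeq reads a part against the rest of its gene, so a positive value means a larger share of the gene's reads in that part and says nothing about the gene's total RNA. A part was called higher or lower at an adjusted p below 0.05. Both times were set against the same +Dox libraries and are therefore given side by side. Values per library, and with them the spread between replicates and the sequencing depth, are not used here. The labelled cell type could not be checked by marker levels for the same reason. Of 10 embryonic stem cell markers, 8 had a tested part at both times, and of 8 fibroblast markers 2 had one at 48 h and 5 at 72 h, which shows only that reads of both kinds of gene were counted.

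CDK13 pairs with cyclin K and phosphorylates the tail of RNA polymerase II while it transcribes. A long gene keeps the polymerase at work over a long stretch of DNA, and its introns are cut out while the RNA is still being made. The cytoskeletal genes here encode very long proteins, through which a cell moves cargo, contracts its cortex, crosslinks actin and holds on to its substrate. The longest annotated coding sequence was 22065 bases for Macf1, the place 6 among 13141 genes of the table, and 13932 bases for Dync1h1, at place 29. It was 7941 bases for Flna, 7623 for Tln1, 6039 for Myh10, 5880 for Myh9 and 4971 for Iqgap1, against a median of 1395 bases over those genes.

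The exons below carry the changes described next: the pair of cassette exons that fell at 72 h, and internal coding exons from the 5′ side that were higher. Parts were matched to exons by their width and by their spacing to the gene's other exons, which held for 312 of the 416 parts. The letters come from GENCODE M21 on GRCm38, and the coordinates on these lines are of that build. The exon is in capitals, and 30 bases of the neighbouring coding exons are in lower case on either side.
Macf1 E008, lower, chr4:123354479-123354580, minus strand: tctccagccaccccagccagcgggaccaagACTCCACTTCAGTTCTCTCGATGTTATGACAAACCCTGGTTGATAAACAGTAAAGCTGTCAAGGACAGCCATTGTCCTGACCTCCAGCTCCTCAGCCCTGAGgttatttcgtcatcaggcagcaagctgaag
Flna E035, lower, chrX:74232967-74232990, minus strand: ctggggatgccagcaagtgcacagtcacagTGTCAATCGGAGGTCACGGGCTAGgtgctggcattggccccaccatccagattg
Macf1 E106, higher, chr4:123506332-123506493, minus strand: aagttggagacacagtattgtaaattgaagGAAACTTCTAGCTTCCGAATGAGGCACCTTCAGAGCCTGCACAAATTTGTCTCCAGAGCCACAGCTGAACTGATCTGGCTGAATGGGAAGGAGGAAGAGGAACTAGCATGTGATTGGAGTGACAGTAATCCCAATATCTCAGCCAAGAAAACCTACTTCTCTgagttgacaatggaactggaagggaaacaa
Dync1h1 E026, higher, chr12:110629823-110629996, plus strand: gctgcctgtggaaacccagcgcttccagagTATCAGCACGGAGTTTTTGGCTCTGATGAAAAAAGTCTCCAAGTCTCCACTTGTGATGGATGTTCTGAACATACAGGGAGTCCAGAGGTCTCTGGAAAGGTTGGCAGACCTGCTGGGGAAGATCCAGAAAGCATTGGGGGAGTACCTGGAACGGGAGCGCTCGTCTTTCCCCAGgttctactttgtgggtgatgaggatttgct
Flna E063, higher, chrX:74240205-74240328, minus strand: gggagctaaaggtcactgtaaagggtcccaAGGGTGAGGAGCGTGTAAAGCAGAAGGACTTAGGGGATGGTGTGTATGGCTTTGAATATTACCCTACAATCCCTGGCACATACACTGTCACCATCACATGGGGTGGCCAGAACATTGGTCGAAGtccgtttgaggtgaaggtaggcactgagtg
Iqgap1 E032, higher, chr7:80743793-80743960, minus strand: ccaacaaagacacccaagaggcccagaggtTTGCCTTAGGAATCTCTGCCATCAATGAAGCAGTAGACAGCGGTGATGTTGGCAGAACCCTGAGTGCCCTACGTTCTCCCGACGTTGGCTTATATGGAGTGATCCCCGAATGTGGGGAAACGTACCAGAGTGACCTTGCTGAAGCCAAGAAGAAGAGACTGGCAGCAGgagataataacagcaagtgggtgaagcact
The cassettes, at 102 bases in Macf1 and 24 bases in Flna, are 34 and 8 codons long and have widths that divide by 3, so a transcript without either keeps its reading frame across the junction.

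After 72 h without doxycycline, the parts that took up a larger share of their gene's reads lay mostly toward the 5′ end, and those with a smaller share lay toward the 3′ end. Of 390 tested parts, 34 were higher and 15 were lower in the authors' deposited table. The called parts were 12.6%, against 3.6% of all 105545 tested parts, where 2.33% were higher and 1.28% lower; called parts listed without a fold change count in neither direction. The gene set was chosen on this comparison, and nothing is read from that gap. Of the 34 that rose, 30 came before the middle of their gene's part order (the 5′ side), 3 came after it (the 3′ side) and 1, in Iqgap1, was exactly in the middle. The 3 were the alternative first exon E062 and the detained intron E014 of Macf1 and the 5-base part E010 of Myh9. With the middle of the genomic interval in place of the middle of the order, 22 were on the 5′ side and 12 on the 3′ side, and with the middle of the summed width 25 and 9. All 15 lower parts lay on the 3′ side. Over all genes with at least 20 tested parts, the 5′ side held 76.3% of the higher parts and the 3′ side 95.8% of the lower ones. A higher part on the 5′ side and a lower one on the 3′ side stood together in 5 of the 7 genes, namely Dync1h1, Myh10, Flna, Macf1 and Tln1. The same held for 10.5% of the 1062 genes with at least 20 tested parts. Dync1h1, Flna and Macf1 prompted the choice of the set, so nothing is read from this gap either. Among the other members, Myh10 and Tln1 had both, and Myh9 and Iqgap1 did not.

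The changes were small. The median size of a called change at 72 h was 0.13 on the log2 scale, and 40 of the 49 called parts were below 0.2. Parts without a special class, mostly internal exons, made up 42 of the 49 called parts and 342 of the 390 tested parts, a similar share. The 3 genes that prompted the choice had 35 called parts of 215 tested (16.3%), and the other 4 had 14 of 175 (8%).

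At 48 h only 7 of 320 tested parts were called in the authors' deposited table, 5 higher and 2 lower, which is 2.19%, against 1.62% of all 42340 tested parts, where 0.964% were higher and 0.633% lower. Apart from an alternative first exon of Macf1, each higher part was in the 5′ portion of its gene, and both lower parts were in the 3′ portion. In genes with at least 20 parts tested at 48 h, 83.6% of higher parts lay on the 5′ side. The 3′ side held 96.7% of the lower ones. Of the 49 parts called at 72 h, 4 were called at 48 h too, namely Dync1h1 E026, Myh10 E046, Macf1 E062 and Tln1 E074. Another 37 were tested at 48 h and not called there, and 8 had no adjusted p at 48 h. Myh10 E003, Flna E046 and Macf1 E006 were called at 48 h and not at 72 h. A total of 26 parts had no adjusted p at either time.

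**Figure D1:**
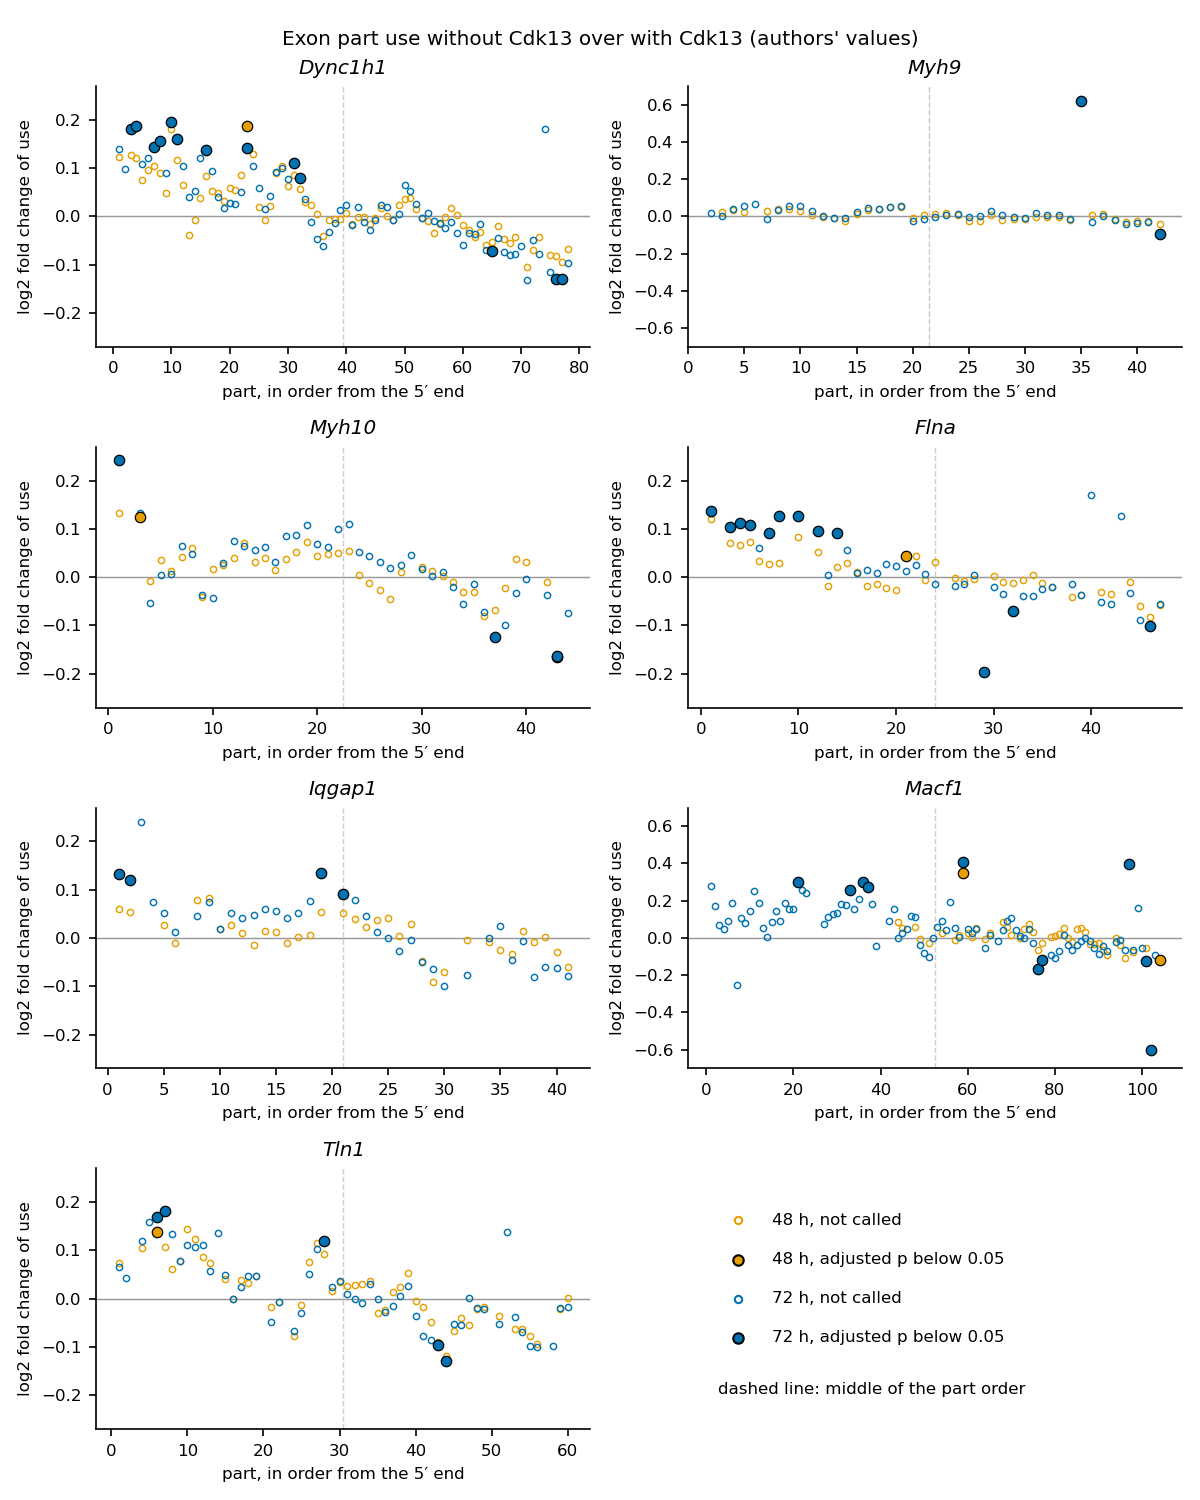
Log2 fold change of use of each exon part, cells without Cdk13 over cells with Cdk13, against its order from the 5′ end, at 48 h (orange) and 72 h (blue), from the authors' deposited table. Filled points are called at an adjusted p below 0.05, and the dashed line is the middle of the order. Values tend to be higher left of that line than right of it. At 72 h, 18 of 21 values right of the line are below 0 in Flna, but 11 of 21 in Myh9 and in Myh10. The scale is wider for Myh9 and Macf1.

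Dync1h1 encodes the heavy chain of cytoplasmic dynein, the motor that walks to the minus ends of microtubules. It had 78 parts over 65.5 kb of the plus strand of chromosome 12. At 72 h, 10 parts were higher, all on the 5′ side, and 3 were lower, all on the 3′ side, in the authors' deposited table. The first 33 parts with a value, up to E036, were all above 0 at 72 h. From E061 to the 3′ end, all 23 parts other than a detained intron were below 0. Detained introns are those that stay in an RNA whose other introns are spliced and whose 3′ end is polyadenylated.

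The 36-base part E013 (mm9 chromosome 12, 111858623 to 111858658) had the largest called value of Dync1h1, 0.18 at 48 h (adjusted p = 0.076) and 0.20 at 72 h (adjusted p = 0.0022) in the authors' deposited table. E004 followed, with 0.12 at 48 h (adjusted p = 0.30) and 0.19 at 72 h (adjusted p = 0.0066), per the authors' deposited table. E026, whose sequence is given above, was called at both times, at 0.19 (adjusted p = 0.016) at 48 h and 0.14 (adjusted p = 0.0032) at 72 h in the authors' deposited table. The lowest adjusted p of the gene, 4.0e-04, belonged to E034 at 0.11 in the authors' deposited table at 72 h. E003, E007, E009, E014, E019 and E035 were the other higher parts, between 0.080 and 0.18 in the authors' deposited table; E003 is named beyond the limit of 12 parts a gene.

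On the 3′ side, E074 was at -0.072 (adjusted p = 0.0030), E088 at -0.13 (adjusted p = 0.013) and E089 at -0.13 (adjusted p = 0.010) at 72 h, per the authors' deposited table. E088 and E089 come just before the terminal exon, and at those values the relative use of E088 fell by 8.63% and that of E089 fell by 8.54%. The first exon E001 stood at 0.14 (adjusted p = 0.083) and the terminal exon E090 at -0.096 (adjusted p = 0.31) at 72 h in the authors' deposited table, and neither was called. The cassette exon E051 was at 0.020, and the detained intron E086 at 0.18 (adjusted p = 0.69), in the authors' deposited table at 72 h. Along the gene, the median of the 5′-most of 5 equal groups of parts was 0.091 at 48 h and 0.13 at 72 h. In the 3′-most group it was -0.057 at 48 h and -0.075 at 72 h.

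Myh9 and Myh10 encode the heavy chains of non-muscle myosin IIA and IIB, the motors that pull on actin filaments in the cell cortex and in the cleavage furrow. Myh9 had 42 parts over 81.4 kb of the minus strand of chromosome 15, and its sides differed least of the 7 genes at 72 h. None of its 38 parts tested with DEXSeq was called at 48 h; unadjusted p-values are not used here and no other tool was run. At 72 h its terminal exon E001 (mm9 chromosome 15, 77591012 to 77591987) was lower, at -0.096 (adjusted p = 0.0035), against -0.042 (adjusted p = 0.74) at 48 h, per the authors' deposited table. The other called part of Myh9, E010 at 0.62 (adjusted p = 0.014) in the authors' deposited table, is 5 bases wide and had no adjusted p at 48 h. E010 has no counterpart among the matched exons. The cassette exons E035 and E007 were at 0.029 and 0.0049, the mutually exclusive parts E047, E031 and E030 at 0.021, 0.024 and 0.047, and the intronic polyadenylation part E041 at 0.068, none of them called, in the authors' deposited table at 72 h. The 17-base first exon E048 was not tested.

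Myh10 had 44 parts over 124.7 kb of the plus strand of chromosome 11. Its first exon E001 (mm9 chromosome 11, 68505418 to 68505684) was higher at 72 h, at 0.24 (adjusted p = 0.0030), and stood at 0.13 (adjusted p = 0.31) at 48 h in the authors' deposited table. That is an 18.3% larger share at 72 h. The next tested part, E003, was called at 48 h (0.13, adjusted p = 0.019) and not at 72 h (0.13, adjusted p = 0.065), in the authors' deposited table, with nearly the same value. At the other end, the 93-base E046 was lower at both times, at -0.16 (adjusted p = 0.022) at 48 h and -0.16 (adjusted p = 0.013) at 72 h in the authors' deposited table. E039 was just inside the threshold at 72 h, at -0.12 (adjusted p = 0.0499) in the authors' deposited table.

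Myh10 had its highest medians away from its 5′ end at 72 h: those of 5 equal groups of parts from 5′ to 3′ were 0.027, 0.063, 0.065, 0.011 and -0.073. All 8 values of the last group were below 0. The terminal exon E048 was at -0.074 (adjusted p = 0.92) and the intronic polyadenylation part E031 at 0.045, neither called, in the authors' deposited table at 72 h. A second first exon, E002, and the cassette E043 were not tested.

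Flna encodes filamin A, a dimer that crosslinks actin filaments into networks and ties them to membrane receptors. It is the most compact of the 7, with 47 parts over 23.1 kb of the minus strand of chromosome X. At 72 h, 9 of its 42 tested parts were higher and 3 lower in the authors' deposited table, the largest share of called parts in the set, 28.6%. All 20 parts with a value on the 5′ side were above 0 at 72 h, and 18 of 21 on the 3′ side were below 0.

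The lowest adjusted p of Flna, 5.1e-06, belonged to the 124-base exon E063 (mm9 chromosome X, 71485544 to 71485667), at 0.13 in the authors' deposited table at 72 h and at 0.082 (adjusted p = 0.088) at 48 h. The 5′-most part E076 was at 0.14 (adjusted p = 8.7e-05) at 72 h and at 0.12 (adjusted p = 0.053) at 48 h in the authors' deposited table. Between E076 and E058, the called parts E073, E072, E070, E068, E067, E061 and E058 lay between 0.091 and 0.13 at 72 h in the authors' deposited table; E067 is only 3 bases wide. The 598-base E046 was called at 48 h (0.043, adjusted p = 0.024), and its value at 72 h was 0.013 (adjusted p = 0.64) in the authors' deposited table.

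The 24-base cassette exon E035 of Flna (mm9 chromosome X, 71478306 to 71478329) was lower at 72 h, at -0.20 (adjusted p = 0.026) in the authors' deposited table. Its relative use fell by 12.7% at that value, and it had no adjusted p at 48 h. The last exon but one, E002, was lower at -0.10 (adjusted p = 0.0060), and E030, named beyond the limit of 12 parts a gene, at -0.071 (adjusted p = 0.042), per the authors' deposited table at 72 h. The terminal exon E001 was at -0.055 (adjusted p = 0.49) and was not called, in the authors' deposited table. The detained introns E015 and E010 stood at 0.17 and 0.13 in the authors' deposited table at 72 h, against the run of values below 0 around them, and neither was called (adjusted p of 0.67 and 0.64). The other cassette, E055, was at 0.016 in the authors' deposited table, and the detained intron E062, next to E063, was not tested.

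Iqgap1 encodes a scaffold that binds actin, calmodulin and the small GTPases CDC42 and RAC1 at the leading edge. It had 41 parts over 91.8 kb of the minus strand of chromosome 7. None of its 35 tested parts was called at 48 h by DEXSeq. At 72 h, 4 of 37 were higher and none lower in the authors' deposited table. These were the first exon E053 at 0.13 (adjusted p = 0.011), the next exon E052 at 0.12 (adjusted p = 0.030), E032 at 0.14 (adjusted p = 6.6e-04) and E029, in the middle of the order, at 0.092 (adjusted p = 0.028), per the authors' deposited table.

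At 72 h the values of Iqgap1 fell into an upper and a lower run. The first 23 parts with a value, through E025, were above 0, and 13 of the 14 after it were below 0. Its terminal exon E001 (-0.078, adjusted p = 0.0519) and E020 (-0.10, adjusted p = 0.0530) were just outside the threshold at 72 h in the authors' deposited table; E020 is named outside the rule. The parts E051 and E050 lie in the long stretch behind the second exon, 13298 and 4268 bases wide, are classed as mutually exclusive, and were at 0.24 and 0.075 without being called, per the authors' deposited table. The intronic polyadenylation part E030 and the cassette E019 were not tested.

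Macf1 encodes a giant spectraplakin that links actin filaments to microtubules. With 104 parts over 332.5 kb of the minus strand of chromosome 4, it is the longest gene here. In the authors' deposited table, 2 of 43 tested parts were called at 48 h and 10 of 95 at 72 h, of which 6 rose and 4 fell. The alternative first exon E062 (mm9 chromosome 4, 123084681 to 123089154), a 4474-base part past the middle of the part order, was higher at both times, at 0.35 (adjusted p = 1e-06) at 48 h and at 0.41 (adjusted p = 1.1e-11) at 72 h in the authors' deposited table. That is a 32.5% larger share at 72 h. Over all genes, 6.9% of tested alternative first exons were called higher at 48 h and 5.52% at 72 h.

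The parts on the 5′ side of E062 and those on its 3′ side were measured unequally. At 48 h, 8 of the 58 parts before E062 had an adjusted p, against 34 of the 45 after it, so that the first 2 of 5 equal groups of parts have no value at that time. At 72 h, 53 of 58 and 41 of 45 were tested. The 5′ stretch was then above 0 in 48 of 53 parts, with a median of 0.11, and the 3′ stretch was below 0 in 27 of 41, with a median of -0.029. The medians of 5 equal groups of Macf1 parts from 5′ to 3′ were 0.15, 0.18, 0.046, -0.0065 and -0.055 at 72 h. The middle group holds parts from both sides of E062, so these medians cannot show whether the values step there. Upstream of E062 the earlier time can therefore be read in those 8 parts only.

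Among the exons before E062, E106 (0.30, adjusted p = 0.0073), E091 (0.26, adjusted p = 0.028), E086 (0.28, adjusted p = 0.0023) and the 11-base E087 (0.30, adjusted p = 0.038) were higher at 72 h in the authors' deposited table. The parts classed as first exons, E126 and E125, were at 0.28 and 0.17 in the authors' deposited table and were not called (adjusted p of 0.57 and 0.66). The cassettes E121, E073 and E044 stood at 0.19, -0.038 and 0.040, and the mutually exclusive parts E079 and E078 at 0.15 and 0.00058, also without a call, per the authors' deposited table at 72 h. The detained intron E120, at -0.25 (adjusted p = 0.26) in the authors' deposited table, was the lowest value on the 5′ side. The intronic polyadenylation part E083 was at -0.042 in the authors' deposited table and was not called.

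The 3′ end of Macf1 held detained introns and a cassette exon side by side. The 102-base cassette E008 (mm9 chromosome 4, 123031722 to 123031823), whose sequence is given above, was lower, at -0.60 (adjusted p = 2.2e-04) at 72 h in the authors' deposited table. Its relative use fell by 34.2%, the largest fall of the 7 genes. The exon before it, E009, was at -0.12 (adjusted p = 0.0024) at 72 h in the authors' deposited table. E006, the 3′-most part of Macf1 in the table, was at -0.12 (adjusted p = 0.029) at 48 h and at -0.13 (adjusted p = 0.064) at 72 h, per the authors' deposited table. The detained intron E007, which lies between E008 and E006, was at -0.091 and not called (adjusted p = 0.87) in the authors' deposited table.

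Further upstream, the 3028-base detained intron E014 (mm9 chromosome 4, 123038271 to 123041298) was higher, at 0.40 (adjusted p = 0.0040) at 72 h in the authors' deposited table. Its neighbours E012 and E010, also detained introns, were at 0.16 and -0.055 and were not called (adjusted p of 0.82 and 0.97, authors' deposited table). The exons E015 and E013 on either side of E014 were at -0.063 and -0.066 in the authors' deposited table, on the other side of 0 from the intron, and were not called. E015 and E013 were named after their values were seen. E038 and E037 were lower at -0.16 (adjusted p = 0.042) and -0.12 (adjusted p = 0.046) in the authors' deposited table at 72 h.

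**Figure D2:**
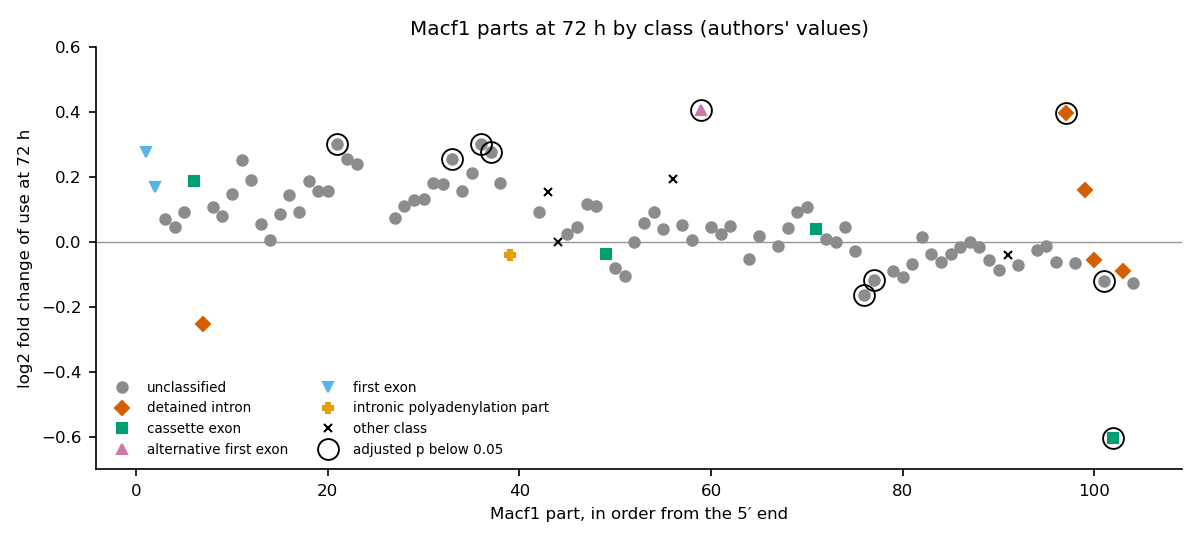
Log2 fold change of use of each Macf1 part at 72 h, cells without Cdk13 over cells with Cdk13, against its order from the 5′ end, with a symbol for the authors' class and a ring at an adjusted p below 0.05. The alternative first exon E062 (0.41) and the detained intron E014 (0.40) stand above the run of exons, and the cassette E008 (-0.60) stands below it.

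Tln1 encodes talin 1, which binds the tails of integrins and couples them to actin. It had 60 parts over 31.1 kb of the minus strand of chromosome 4. At 48 h its sides differed more than those of most genes: the median was 0.068 on the 5′ side and -0.022 on the 3′ side. E074 was called at both times, at 0.14 (adjusted p = 0.043) at 48 h and 0.17 (adjusted p = 0.0019) at 72 h in the authors' deposited table. The neighbouring exon E073 (mm9 chromosome 4, 43568474 to 43568626) was at 0.11 (adjusted p = 0.15) at 48 h and at 0.18 (adjusted p = 6.0e-05) at 72 h in the authors' deposited table. E043, the third higher part at 72 h, was at 0.12 (adjusted p = 0.040) in the authors' deposited table.

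On the 3′ side of Tln1, the adjacent parts E026 (-0.095, adjusted p = 0.021) and E025 (-0.13, adjusted p = 0.040) were lower at 72 h in the authors' deposited table; E025 is 4 bases wide. Neither end of Tln1 was called. The first exon E081 was at 0.066 (adjusted p = 0.73) and the terminal exon E001 at -0.018 (adjusted p = 0.91) at 72 h in the authors' deposited table. The detained introns E011 and E003 were at 0.14 and -0.098, the alternative polyadenylation part E080 at 0.042 and the cassette E033 at -0.028 in the authors' deposited table, none of them called. The cassette E058 was not tested.

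Set side by side, all 7 genes had a higher median on the 5′ side than on the 3′ side at both times. At 48 h the median on the 5′ side ran between 0.017 in Iqgap1 and 0.068 in Tln1, and at 72 h between 0.031 in Myh9 and 0.13 in Macf1. On the 3′ side, the lowest medians were -0.022 in Tln1 at 48 h and -0.036 in Iqgap1 at 72 h. Macf1 was above 0 on the 3′ side at 48 h, at 0.0046, where only 5 values stood on its 5′ side. By the difference between sides, the 7 were placed among 237 genes with at least 20 values at 48 h and 1061 at 72 h. At 48 h Tln1 came at place 7, Dync1h1 at 24, Myh10 at 73 and Macf1 at 84. Flna, Myh9 and Iqgap1 followed at 107, 108 and 175. At 72 h Macf1 came at place 100, Dync1h1 at 177, Flna at 259 and Iqgap1 at 273. Tln1, Myh10 and Myh9 followed at 320, 401 and 681. The direction is shared with most genes that have this many values, and these genes were not split by length. Of those genes, 94.5% at 48 h and 82.4% at 72 h had the higher median on the 5′ side. The median difference was 0.038 at 48 h and 0.050 at 72 h.

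**Figure D3:**
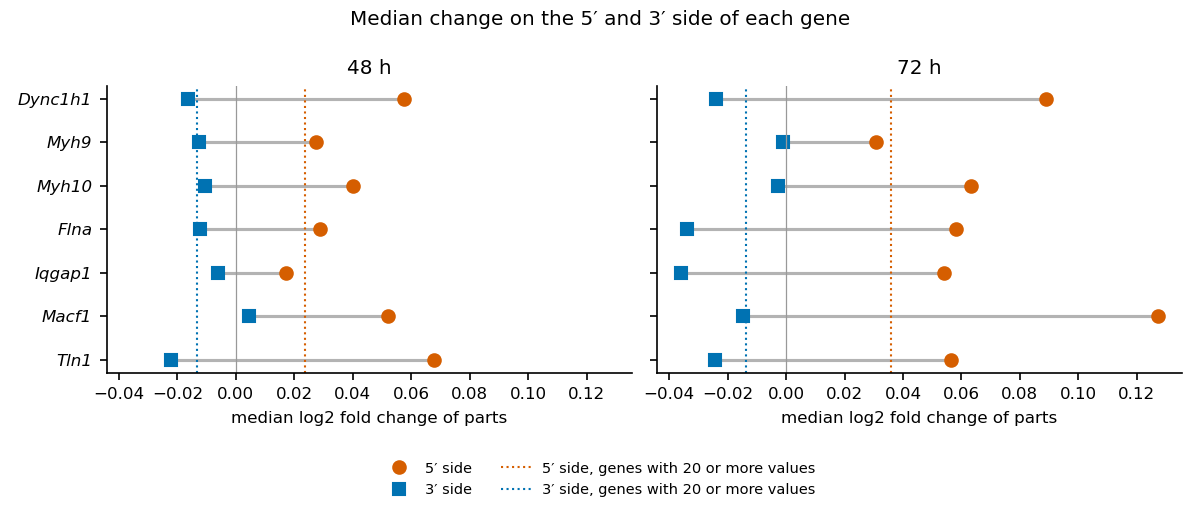
Median log2 fold change of use, cells without Cdk13 over cells with Cdk13, over the parts on the 5′ side (circles) and on the 3′ side (squares) of each gene, at 48 h on the left and 72 h on the right. Dotted lines are the medians over genes with at least 20 parts with a value; each circle lies to the right of its square.

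**Figure D4:**
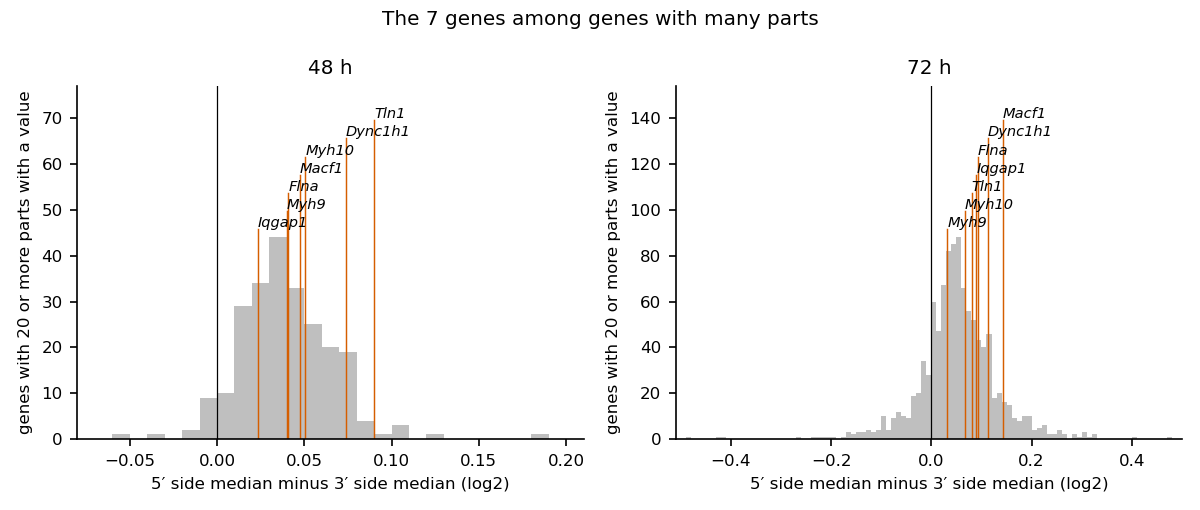
Number of genes by the difference between the 5′ side median and the 3′ side median (log2), among genes with at least 20 parts with a value, at 48 h (237 genes) and 72 h (1061 genes), with a line for each of the 7 genes. All 7 lines are above 0, as are most genes; Tln1 is farthest right of the 7 at 48 h and Macf1 at 72 h.

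By class, the ends of the genes pointed opposite ways. All 6 first exons with a value at 72 h were above 0 and all 6 terminal exons below 0, although only the first exons of Myh10 and Iqgap1 and the terminal exon of Myh9 were called. Over all genes, 5.33% of tested first exons were called higher and 8.22% of tested terminal exons lower at 72 h. The median over all genes at 72 h had the same signs, 0.050 for first exons and -0.044 for terminal exons. Of 10 tested detained introns, 6 were above 0 and 4 below, with a median of 0.13 against 0.18 over all genes. Macf1 E014 was the called one, and over all genes 14.8% were called higher. Of 10 tested cassette exons, Macf1 E008 and Flna E035 were lower and the other 8 were not called. Over all genes, lower was the call for 0.646% of all tested cassettes. Macf1 and Flna were among the genes that prompted the choice of the set, so nothing is read from that gap. Of 9 parts at alternative 5′ splice sites, 4 were tested at 72 h and none was called: Macf1 E065 was at 0.19, Macf1 E021 at -0.041, Dync1h1 E059 at -0.0036 and Iqgap1 E007 at -0.080 in the authors' deposited table.

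The shapes of the profiles were compared by the median value in each of 10 equal groups of part order at 48 h and at 72 h, 20 values a gene, over 179 genes with enough parts. These points share libraries and the +Dox controls, and Pearson's r describes likeness only. Among the genes most like Dync1h1 were Ptprf (r = 0.93), a receptor tyrosine phosphatase, Nup133 (r = 0.93), a nuclear pore subunit, Hspg2 (r = 0.92), which encodes perlecan, and Fn1 (r = 0.92), which encodes fibronectin. Those most like Flna were Cad (r = 0.94), an enzyme of pyrimidine synthesis, Prrc2a (r = 0.94), Prpf8 (r = 0.94), a core splicing factor, Dnmt1 (r = 0.94), the maintenance DNA methyltransferase, and Fn1 (r = 0.92). The median r over all those genes was 0.70 with Dync1h1 and 0.69 with Flna. Among the members themselves r was 0.85 between Dync1h1 and Flna, was highest between Flna and Tln1 (0.88) and lowest between Myh9 and Iqgap1 (0.62). These names depend on the grouping: with 5 position groups in place of 10, none of the 5 genes most like Dync1h1 and none of the 5 most like Flna were among the 5 again. Macf1 has empty groups at 48 h. Over its 10 values at 72 h alone, chosen after seeing the data, Heatr1, Apeh, Igf2r, Itpr3 and Flnc were most like it (r between 0.91 and 0.93, over 997 genes, median 0.39).

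The surrounding pathways were looked up from 5 lists of genes by role. Every list but that of the kinesins includes genes of the set. Of the dynein and dynactin genes, 6 of 22 tested genes had a called part at 48 h and 10 of 27 at 72 h (higher in 9, lower in 4). Of the kinesins, which walk mostly to the plus ends of microtubules, 0 of 24 had a part called by DEXSeq at 48 h and 4 of 30 at 72 h (higher in 4, lower in 1). Of the non-muscle myosins and their regulators, 2 of 20 had one at 48 h and 12 of 27 at 72 h (higher in 10, lower in 8). Of the actin crosslinkers, scaffolds, spectrins and plakins, 7 of 19 had one at 48 h and 14 of 26 at 72 h (higher in 12, lower in 9). Of the integrin adhesion genes, 1 of 17 had one at 48 h and 5 of 23 at 72 h (higher in 4, lower in 2). A gene can count in both directions. Genes of the set among those called numbered, at 48 h and 72 h, 1 and 1 for dynein and dynactin. They numbered 1 and 2 for the myosins, 2 and 3 for the actin crosslinkers, and 1 and 1 for the integrin adhesions. Dync1h1, Flna and Macf1 prompted the choice of the set, so nothing is read from gaps between the lists and all genes. Over all tested genes the share was 7.12% at 48 h and 19.1% at 72 h (higher in 13.7%, lower in 9.44%), and over genes with at least 20 tested parts it was 24.8% and 39.3%. The lists differed in genes with that many tested parts. At 72 h these numbered 6 for dynein and dynactin, 11 for the kinesins and 16 for the myosins. There were 10 for the actin crosslinkers and 9 for the integrin adhesions.

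Beyond the 7 genes, up to 4 genes of each list are given by their called part of lowest adjusted p at 72 h. The detained introns of Cttn, an actin-branching regulator (0.73, adjusted p = 1.95e-07), Dync1li1, a dynein light intermediate chain (0.55, adjusted p = 0.0043), Myo10, the filopodial myosin (0.45, adjusted p = 6.3e-07), Dctn1, the large dynactin subunit (0.43, adjusted p = 3.6e-04), and Kif3a, a kinesin-2 motor (0.37, adjusted p = 0.0018), were higher in the authors' deposited table. Each of these detained introns lay on the 3′ side of its gene. The cassette E003 of Ndel1, a dynein regulator, was lower at -0.55 (adjusted p = 1.5e-06) in the authors' deposited table. Terminal exons were lower in Ptk2, which encodes focal adhesion kinase (-0.40), Myo5a (-0.18), Kif21b (-0.16), Myh14 (-0.13), Iqgap3 (-0.096), Myo1c (-0.081) and Actn4 (-0.051), with adjusted p between 1.6e-10 and 0.016 in the authors' deposited table. Parts of Itga3 (0.17), Vcl (0.15), Kif13a (0.14), Kif2c (0.12), Tns1 (0.11), Hook2 (0.10) and Lasp1 (0.065) were higher, with adjusted p between 1.5e-05 and 0.043 in the authors' deposited table, and all but that of Lasp1, in the middle of its gene, lay on the 5′ side; the Kif2c part is 3 bases wide.

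**Figure D5:**
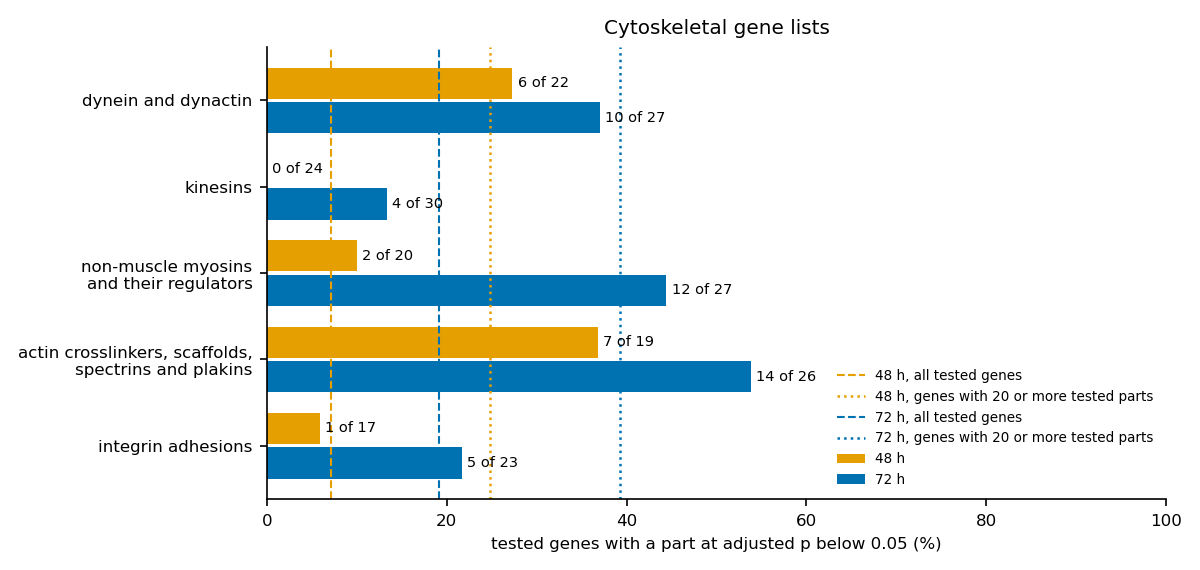
Share of the tested genes of each list (%) with at least 1 part at an adjusted p below 0.05, at 48 h (orange) and 72 h (blue), with the counts beside the bars. Dashed lines give the share over all tested genes (7.12% at 48 h and 19.1% at 72 h) and dotted lines the share over genes with at least 20 tested parts (24.8% and 39.3%).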

How the data were processed

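Polyadenylated RNA of 12 libraries was sequenced, and the data used were 1 table of the authors' own comparison. Per the file headers, the authors gave for each exon part the log2 fold change of its use (Cdk13-depleted over Cdk13-expressing cells) and an FDR-adjusted p-value from DEXSeq at 48 h and at 72 h. Per the submitters' processing notes, STAR 2.4.1d and mm9 were used; per the labels' protocols, libraries were stranded. On the annotation, the counting step, the DEXSeq version and its model, and on whether clone was a term, nothing more is stated in the labels or headers. Depth per library is unknown here, and 0 columns of per-library values were left unused.

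Parts were ordered by strand, split at the middle of that order into a 5′ and a 3′ side, and called at the authors' adjusted p below 0.05. Parts with no adjusted p count as not tested. All shares use the whole table. The members, the gene lists and the rules were chosen with earlier results of these data known. Named parts are the 5′-most, the 3′-most and every classed part of a member, up to 12 called parts a gene, up to 4 genes a list and the 5 genes of highest r. A few others are named after their values were seen, and 1 gene the rule names is not reported here. Of 168 list entries, 152 matched by symbol, 4 by an older name and 12 were not found. Counting was tested on simulated data. Python 3.11.15, pandas 2.3.3 and numpy 2.4.6 were used. Thresholds, the middle of the gene and the classes counted were varied.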

Additional observations from a re-analysis of the deposited data

How the results depend on the processing

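No paired analysis was possible because the deposited table holds 1 value per part and time and no values per library, and leaving out each library was not run for the same reason. The number of called parts of the 7 genes at 48 h was 1 at an adjusted p below 0.01 and 13 below 0.10, and at 72 h it was 24 below 0.01. Higher parts on the 3′ side at 48 h numbered 0 without first, alternative first and terminal exons. At 72 h they numbered 12, beside 22 on the 5′ side, with the middle of the genomic interval and 9, beside 25, with the middle of the summed width, since these middles move parts between the sides by construction. Genes with a called part at an adjusted p below 0.01 numbered, for dynein and dynactin, 1 at 48 h and 6 at 72 h, for kinesins 2 at 72 h, for non-muscle myosins 1 at 48 h, for actin crosslinkers 3 at 48 h and 9 at 72 h, and for integrin adhesions 0 at 48 h and 2 at 72 h. Below 0.10 the myosins had 5 at 48 h, and the integrin adhesions 2 at 48 h and 8 at 72 h. Another 34 recomputed counts stayed within 1.5 times. Each alternative uses the same deposited fold changes, so the direction of a part could not change in any of them. Of 56 calls at either time, 31 did not pass 0.01 and 10 were smaller than 0.1. With 5 position groups, 0 of the 5 genes most like Dync1h1 and 0 of those most like Flna were shared.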
